A study of Danio rerio with 15 samples.

Results

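Adrenomedullin, endothelin and vasopressin genes were followed in the ventricles of anaemic and recovering adult zebrafish. The set held 10 genes chosen by symbol: the peptide genes adma, admb, adm2a, edn1 and edn2, and the receptor genes calcrla, ednraa, ednrab, ednrba and avpr1ab. The choice was made with earlier results of these data known. All 10 were found among the 19260 genes measured, each with a single transcript cluster, the array's unit of about 1 gene.

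Ventricles were profiled on 15 whole-transcript expression arrays, each loaded with RNA of 3 pooled ventricles, so that 1 array stands for 1 pool. Phenylhydrazine, which lyses red blood cells, was added to the water for 30 min every 3 days over 5 weeks, at 1.25 µg/mL during week 1 and at 2.5 µg/mL from then on. The 5 groups held 3 arrays each: controls bathed in the same way with no drug, fish sampled when treatment ended, and fish sampled 2, 5 or 9 days later. The labels describe the model as heart failure followed by regeneration. They give no strain and no sex, and no sampling day for the controls, so drug and sampling day cannot be told apart.

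Adrenomedullin and adrenomedullin 2, also called intermedin, are peptides that widen blood vessels and act on the calcitonin receptor-like receptor together with a small membrane partner, a RAMP. Endothelins are made as precursors, cut by endothelin-converting enzymes, and mostly narrow vessels through type A receptors on muscle, while type B receptors on endothelium can do the opposite. Vasopressin, vasotocin in fish, narrows vessels through V1a receptors, which cardiomyocytes of mammals carry as well. In mammals the genes of adrenomedullin and endothelin 1 are induced by low oxygen.

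All values are log2 signals made by the authors with RMA, and levels are compared only between groups for the same gene, since different probes do not share a scale. A difference is given as a log2 difference ± its standard error with 3 arrays per group. The words rose and fell are kept for an adjusted p under 0.05 from limma. It fits a linear model to each gene and draws on all genes to estimate each gene's variance. The comparisons with control all use the same 3 control arrays.

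Every peptide gene that was called against control rose, and every called receptor gene fell. When treatment ended, adma, adm2a, edn1 and edn2 were higher and ednraa, ednrab and avpr1ab lower. These 4 and 3 of 10 genes stood against 14.6% of all genes called higher and 9.6% called lower, 24.2% in all. The 10 were chosen with earlier results of these data known, so neither such shares nor the split by direction test the set. The arrays of 7 of the 10 did not overlap those of control, against 38.1% of all genes. At 2 days the same 4 genes were higher and the same 3 lower, against 7.62% and 4.15% of all genes, 11.8% in all, and 8 of the 10 did not overlap, against 28.1%.

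Fewer were called later. At 5 days adm2a and edn1 were higher and avpr1ab lower, against 3.9% and 2.47% of all genes, 6.37% in all, and 3 of the 10 did not overlap control, against 23%. At 9 days adma and edn1 were higher and avpr1ab lower, against 4.24% and 3.3%, 7.54% in all, and 5 of the 10 did not overlap, against 25.5%. The median log2 difference of the 10 genes was 0.29, 0.40, -0.09 and 0.11 in these comparisons, and that of all genes lay between 0.01 and 0.02. Over the 4 comparisons together limma's F test called 7 of the 10, against 26.9% of all genes, and left out admb, calcrla and ednrba.

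Between treated groups, 2 genes were higher and 2 lower at 2 days than when treatment ended, against 3.52% and 4.45% of all genes, 7.98% in all, and 4 of the 10 did not overlap, against 25.9%. At 5 days 2 were higher and 3 lower than when treatment ended, against 4.34% and 8.01%, 12.3% in all, and 7 did not overlap, against 28%. At 9 days 2 were higher and 3 lower, against 7.38% and 11.6%, 19% in all, and 8 did not overlap, against 33.9%. In these last 2 comparisons the genes that came down were adma, adm2a and edn1, and those that came back up were ednrab and avpr1ab.

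From 2 to 5 days 0 genes rose and 2 fell, against 0.0363% and 0.151% of all genes, 0.187% in all, and 5 did not overlap, against 14%. From 5 to 9 days 1 rose and 1 fell, against 2.87% and 3.25%, 6.12% in all, and 3 did not overlap, against 21.7%. From 2 to 9 days 1 rose and 3 fell, against 3.29% and 5.93%, 9.22% in all, and 8 did not overlap, against 26.2%.

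**Figure D1:**
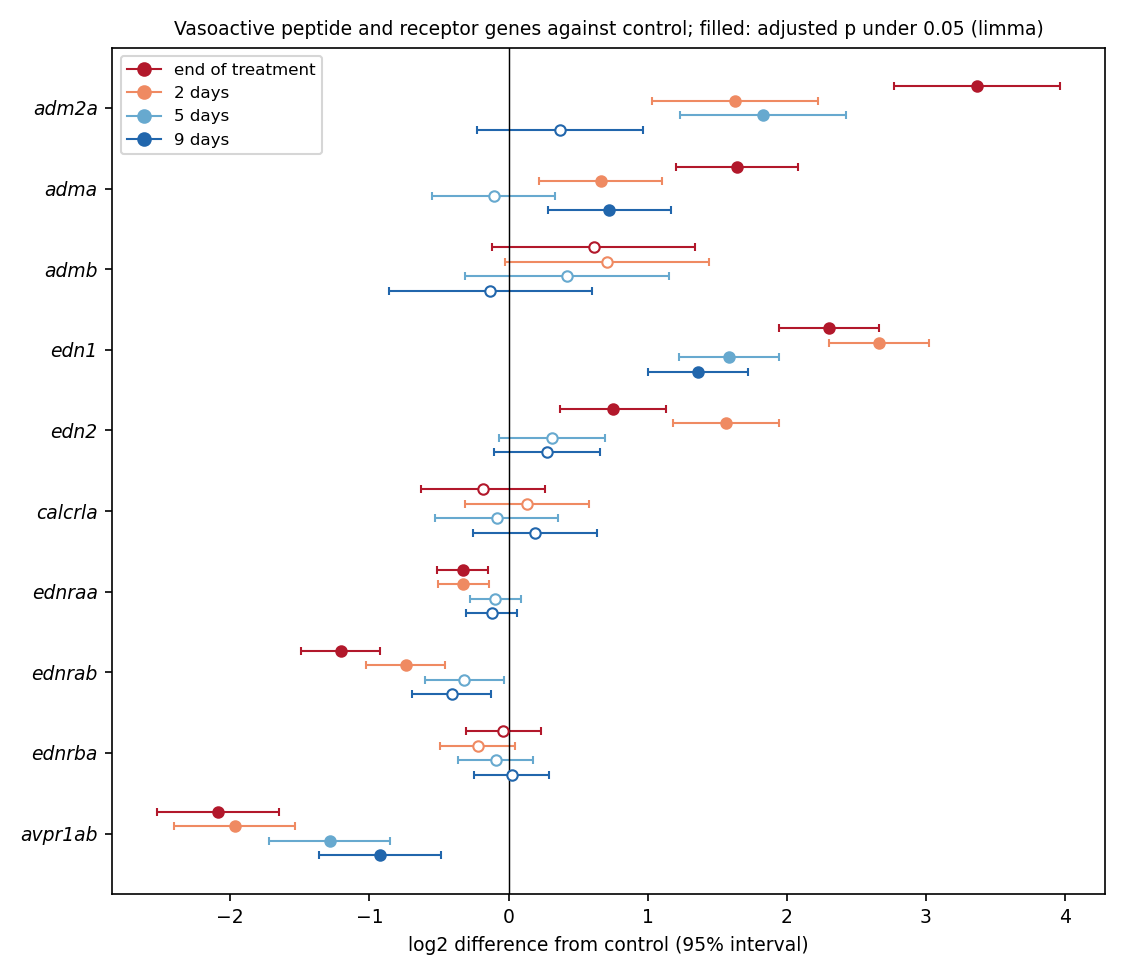
Log2 difference from control for the 10 genes at the end of treatment and after 2, 5 and 9 days. Points are limma estimates from 3 arrays per group, bars are 95% intervals, and filled points have an adjusted p under 0.05. Filled points of peptide genes lie to the right of 0 and those of receptor genes to the left.

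Among the peptides, adm2a had the largest rise at the end of treatment. Its control arrays read 5.89, 6.85 and 5.55 on the log2 scale, and the arrays at the end of treatment 9.29, 9.65 and 9.45. At 2 days the signals were 7.39, 7.56 and 8.23, at 5 days 7.41, 8.15 and 8.23, and at 9 days 6.41, 6.64 and 6.35. The arrays at the end of treatment stood above every other array, those at 2 and 5 days lay in between without overlapping control, and those at 9 days lay within the control range. The rise at the end of treatment was 3.36 ± 0.28, or 10.3-fold, with an adjusted p of 3.07e-07. The difference from control was 1.63 ± 0.28 (adjusted p = 0.00104) at 2 days, 1.83 ± 0.28 (adjusted p = 0.000782) at 5 days and 0.37 ± 0.28 (adjusted p = 0.512) at 9 days. It dropped by 1.74 ± 0.28 between the end of treatment and 2 days (adjusted p = 0.000851) and by 1.46 ± 0.28 between 5 and 9 days (adjusted p = 0.00523). Between 2 and 5 days it differed by 0.20 ± 0.28, with an adjusted p of 0.889 and a 95% interval from -0.39 to 0.80. At 9 days it was 1.26 ± 0.28 lower than at 2 days (difference -1.26, adjusted p = 0.0089). That last call was lost without 2 days replicate 3, the highest array of its group, with a difference of -1.01 and an adjusted p of 0.059.

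The adrenomedullin gene adma followed another course. Control arrays read 5.45, 5.85 and 5.95, and those at the end of treatment 7.38, 7.55 and 7.26. The signals were 6.01, 6.57 and 6.67 at 2 days, 5.88, 5.25 and 5.81 at 5 days, and 6.68, 6.09 and 6.66 at 9 days. The groups at 2 and 9 days stood above control with little space between the nearest arrays, and the group at 5 days overlapped control. The rise at the end of treatment was 1.64 ± 0.21, or 3.12-fold (adjusted p = 2.05e-05). It had dropped by 0.98 ± 0.21 at 2 days (adjusted p = 0.00675) and by 1.75 ± 0.21 at 5 days (adjusted p = 4.11e-05) relative to the end of treatment. At 5 days it differed from control by -0.11 ± 0.21 (adjusted p = 0.838). The step from 2 to 5 days, -0.77 ± 0.21, was not called (adjusted p = 0.175), though the arrays did not overlap.

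The later values of adma sat close to the threshold. The differences from control were 0.66 ± 0.21 at 2 days (adjusted p = 0.0489) and 0.72 ± 0.21 at 9 days (adjusted p = 0.0438), and 9 days exceeded 5 days by 0.83 ± 0.21 (adjusted p = 0.0245). Of 24 other settings of the fit, 17 lost the call at 2 days and 14 the call at 9 days. Without control replicate 1, the lowest control array, the values were 0.51 (adjusted p = 0.203) and 0.57 (adjusted p = 0.177). The other single arrays whose omission ended the call at 2 days were control replicates 2 and 3, all 3 arrays at the end of treatment, 2 days replicates 2 and 3, 5 days replicate 3, and 9 days replicates 1 and 3, with differences from 0.54 to 0.76. At 9 days they were control replicates 2 and 3, all 3 arrays at the end of treatment, 2 days replicate 2, and 9 days replicates 1 and 3, with differences from 0.62 to 0.82. The difference between 9 and 5 days was no longer called without 5 days replicate 2 (0.63, adjusted p = 0.119), 9 days replicate 1 (0.73, adjusted p = 0.091) or 9 days replicate 3 (0.74, adjusted p = 0.101).

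The second adrenomedullin gene, admb, was not called in any of the 10 comparisons. Control arrays read 4.57, 5.12 and 4.55, and those when treatment ended 4.57, 5.27 and 6.22, a spread of 0.83 (SD, n = 3) in the latter. At 2, 5 and 9 days the group means were 5.45 ± 0.35, 5.16 ± 0.64 and 4.61 ± 0.15 (SD, n = 3). The group at 2 days lay just above the control arrays and the other 3 overlapped them. The difference at the end of treatment was 0.61 ± 0.35 (adjusted p = 0.238), with a 95% interval from -0.12 to 1.34, and without end of treatment replicate 1 it was 1.00 with an adjusted p of 0.0413. Leaving out that array also called the difference between 9 days and the end of treatment (-1.14, adjusted p = 0.0293), and a fit of only the 6 arrays compared called that between 9 and 2 days (-0.84, adjusted p = 0.023). In the order of its 5 group means no neighbours were separated by the test.

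The endothelin 1 gene edn1 rose and was still higher at 9 days. It read 5.72, 5.92 and 5.62 in control, 8.12, 8.01 and 8.02 when treatment ended, and 8.06, 8.32 and 8.84 at 2 days. At 5 days the signals were 7.40, 7.20 and 7.41, and at 9 days 7.23, 7.34 and 6.77. Every treated array stood above every control array, and the arrays at the end of treatment and at 2 days stood above all those at 5 and 9 days. The rise at the end of treatment was 2.30 ± 0.17, or 4.93-fold (adjusted p = 8.42e-08). The differences from control were then 2.66 ± 0.17 at 2 days, or 6.32-fold (adjusted p = 1.48e-07), 1.59 ± 0.17 at 5 days (adjusted p = 3.42e-05) and 1.36 ± 0.17 at 9 days, or 2.57-fold (adjusted p = 0.000275). At 9 days 59.2% of the log2 difference measured at the end of treatment was still present.

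The highest mean of edn1 was at 2 days, but 2 days and the end of treatment differed by only 0.36 ± 0.17 (adjusted p = 0.255). It had dropped by 0.72 ± 0.17 from the end of treatment to 5 days (adjusted p = 0.00992) and by 0.94 ± 0.17 to 9 days (adjusted p = 0.000825). From 2 days, the drop was 1.07 ± 0.17 to 5 days (difference -1.07, adjusted p = 0.0176), a call that was lost without 2 days replicate 2 (-1.12, adjusted p = 0.053) and without 5 days replicate 2 (-1.004, adjusted p = 0.0822). Between 5 and 9 days the difference was -0.22 ± 0.17 (adjusted p = 0.555).

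The endothelin 2 gene edn2 was highest at 2 days. Control arrays read 5.82, 6.63 and 5.93, and those at the end of treatment 7.12, 6.86 and 6.65. At 2 days the signals were 7.55, 7.88 and 7.64, at 5 days 6.45, 6.50 and 6.38, and at 9 days 6.29, 6.63 and 6.29. The arrays at 2 days stood above all 12 others, and those at 5 and 9 days lay inside the control range. The rise was 0.75 ± 0.18 at the end of treatment (adjusted p = 0.00515) and 1.56 ± 0.18, or 2.95-fold, at 2 days (adjusted p = 2.87e-05). The step between these groups, 0.81 ± 0.18, was itself called (adjusted p = 0.00887). The differences from control were 0.31 ± 0.18 at 5 days (adjusted p = 0.359) and 0.28 ± 0.18 at 9 days (adjusted p = 0.421).

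From 2 to 5 days edn2 fell by 1.25 ± 0.18 (difference -1.25, adjusted p = 0.00893), a call that was lost without 2 days replicate 2 (-1.15, adjusted p = 0.0527). When every transcript cluster of the array was tested, neither passed, at adjusted p = 0.113 for edn1 and adjusted p = 0.089 for edn2. At 9 days edn1 was lower than at 2 days by 1.30 (difference -1.30 ± 0.17, adjusted p = 0.000202) and edn2 by 1.29 (difference -1.29 ± 0.18, adjusted p = 0.000315).

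**Figure D2:**
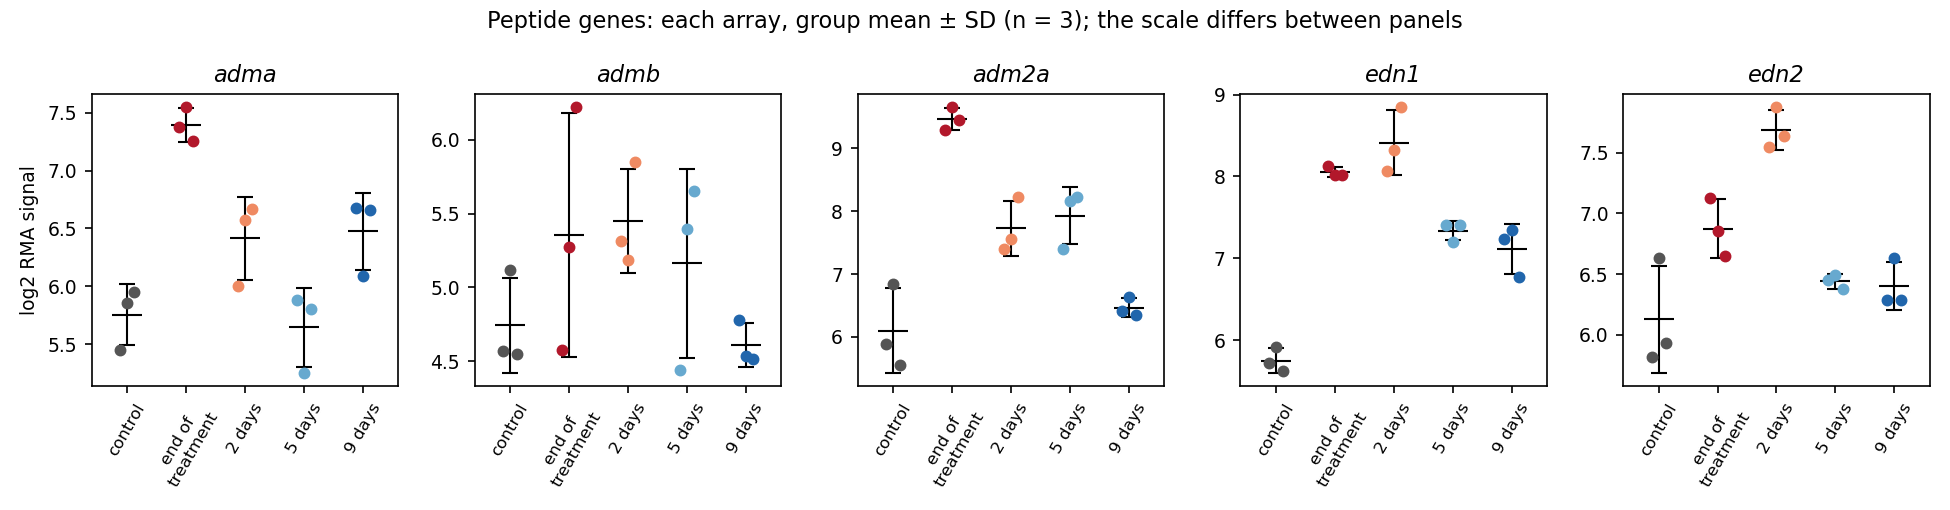
Log2 RMA signal of the 5 peptide genes on each of the 15 arrays, with the group mean and SD (n = 3) in black. Each panel has its own scale. The gene adm2a is highest at the end of treatment, edn2 at 2 days, and all treated arrays of edn1 lie above the control arrays.

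The calcitonin receptor-like gene calcrla, whose product binds adrenomedullins, did not pass the test in any comparison. Its signals were 5.64, 5.90 and 4.95 in control and 5.44, 5.00 and 5.49 when treatment ended. The means at 2, 5 and 9 days were 5.62 ± 0.15, 5.41 ± 0.26 and 5.69 ± 0.19 (SD, n = 3). The control arrays covered the range of every other group. The difference at the end of treatment was -0.18 ± 0.21, with a 95% interval from -0.63 to 0.26.

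Both type A endothelin receptor genes fell at the end of treatment. The gene ednrab read 11.96, 11.74 and 11.91 in control and 10.68, 10.81 and 10.50 when treatment ended. At 2 days the signals were 11.19, 11.26 and 10.94, at 5 days 11.25, 11.87 and 11.53, and at 9 days 11.42, 11.65 and 11.32. The arrays at the end of treatment stood below all others, those at 2 and 9 days stayed below control, and those at 5 days reached into the control range. The fall was -1.21 ± 0.13 at the end of treatment, 2.31-fold (adjusted p = 5.43e-06), and -0.74 ± 0.13 at 2 days (adjusted p = 0.00155). The differences from control were -0.32 ± 0.13 at 5 days (adjusted p = 0.188) and -0.41 ± 0.13 at 9 days (adjusted p = 0.0786).

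Relative to the end of treatment ednrab had risen by 0.89 ± 0.13 at 5 days (adjusted p = 0.000317) and by 0.80 ± 0.13 at 9 days (adjusted p = 0.000427). The step from the end of treatment to 2 days was 0.47 ± 0.13 (adjusted p = 0.0395). That call was lost without end of treatment replicate 1 (0.48, adjusted p = 0.0905) or replicate 3 (0.39, adjusted p = 0.156), and without 2 days replicate 1 (0.44, adjusted p = 0.131) or replicate 2 (0.41, adjusted p = 0.154). It was also lost with no variance trend (adjusted p = 0.0861) and when every transcript cluster was tested (adjusted p = 0.138). The difference from control at 5 days was called without 5 days replicate 2 (-0.48, adjusted p = 0.0422). That at 9 days was called without 5 days replicate 1 (adjusted p = 0.0412) or 5 days replicate 2 (adjusted p = 0.0367), at the same difference of -0.41. A fit of only the 6 arrays compared called it as well (adjusted p = 0.0373).

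The paralogue ednraa moved less. It read 8.22, 8.28 and 8.29 in control, 7.83, 7.92 and 8.05 when treatment ended and 7.96, 7.96 and 7.89 at 2 days. The means at 5 and 9 days were 8.17 ± 0.16 and 8.14 ± 0.03 (SD, n = 3). All arrays at the end of treatment, at 2 days and at 9 days lay below the control arrays, and those at 5 days overlapped them. The falls were -0.33 ± 0.09 at the end of treatment (adjusted p = 0.00928) and -0.33 ± 0.09 at 2 days (adjusted p = 0.0207), and the differences at 5 and 9 days were -0.09 ± 0.09 and -0.12 ± 0.09 (adjusted p = 0.609 and adjusted p = 0.48). Relative to the end of treatment ednraa was 0.24 ± 0.09 higher at 5 days (adjusted p = 0.0931) and 0.21 ± 0.09 higher at 9 days (adjusted p = 0.108), and median centring called both (0.31, adjusted p = 0.0162, and 0.30, adjusted p = 0.0128). Without end of treatment replicate 1 the fall at the end of treatment was -0.28 with an adjusted p of 0.0504. The fall at 2 days lost its call without control replicate 2 (-0.32, adjusted p = 0.0554), control replicate 3 (-0.31, adjusted p = 0.0671) or 2 days replicate 3 (-0.30, adjusted p = 0.0789).

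The type B receptor gene ednrba had low signals throughout. All 15 lay between 2.56 and 3.17. The median signal of the arrays was between 4.02 and 4.10, given for orientation only, since different probes do not share a scale. No comparison was called, and its differences from control ran from -0.22 ± 0.13 at 2 days (adjusted p = 0.333) to 0.02 ± 0.13 at 9 days (adjusted p = 0.95). Its arrays still did not overlap between 5 days and the end of treatment, nor between 9 days and any other treated group. It is thus among the non-overlapping genes counted above for those comparisons, at differences from -0.05 to 0.24. No detection values were used here, so whether this probe set measured any transcript is unknown.

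The V1a vasopressin receptor gene avpr1ab had the largest fall of the 10 genes and was still lower at 9 days. It read 7.35, 8.10 and 7.49 in control, 5.41, 5.34 and 5.93 when treatment ended and 5.82, 5.89 and 5.33 at 2 days. At 5 days the signals were 6.67, 6.20 and 6.21, and at 9 days 6.78, 6.78 and 6.61. No treated array reached the lowest control array, and those at 5 and 9 days stood above all those at the end of treatment and at 2 days. The fall was -2.09 ± 0.21, or 4.25-fold, at the end of treatment (adjusted p = 1.61e-06) and -1.97 ± 0.21 at 2 days (adjusted p = 1.21e-05). It was -1.28 ± 0.21 at 5 days (adjusted p = 0.00109) and -0.92 ± 0.21, or 1.90-fold, at 9 days (adjusted p = 0.012). At 9 days 44.2% of the log2 difference of the end of treatment was still present.

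The end of treatment and 2 days differed by 0.12 ± 0.21 for avpr1ab (adjusted p = 0.835). Relative to the end of treatment it had risen by 0.80 ± 0.21 at 5 days (adjusted p = 0.0155) and by 1.16 ± 0.21 at 9 days (adjusted p = 0.000671), and 9 days exceeded 2 days by 1.04 ± 0.21 (adjusted p = 0.00382). The rise to 5 days was no longer called without end of treatment replicate 1 (0.73, adjusted p = 0.0635), end of treatment replicate 2 (0.69, adjusted p = 0.0776) or 5 days replicate 1 (0.65, adjusted p = 0.0759). The fall at 9 days was no longer called without control replicate 2 (-0.70, adjusted p = 0.0583) or 9 days replicate 3 (-0.87, adjusted p = 0.0529).

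**Figure D3:**
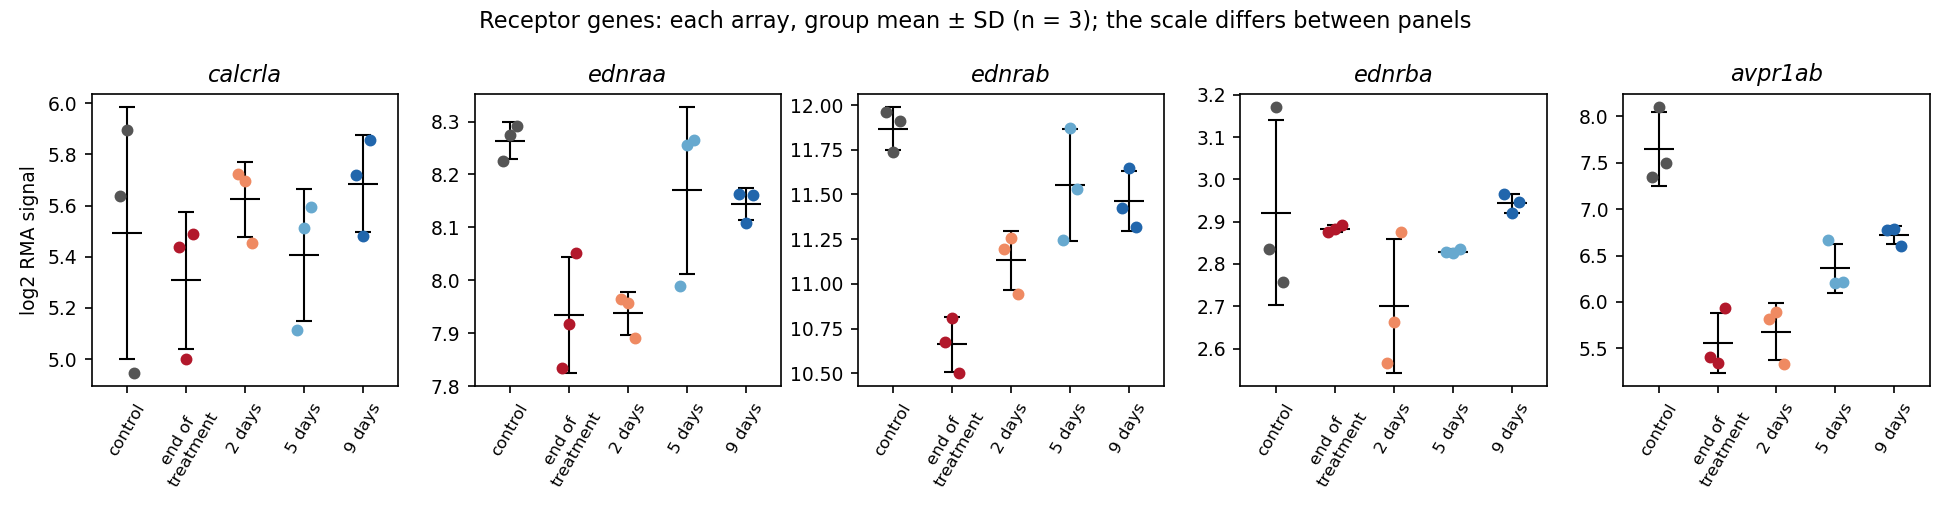
Log2 RMA signal of the 5 receptor genes on each of the 15 arrays, with the group mean and SD (n = 3) in black. Each panel has its own scale. The gene ednrab is lowest at the end of treatment, avpr1ab lies below control in all treated groups, and the control arrays of calcrla span the other groups.

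The groups can be ordered by level within each gene. For adm2a the order was end of treatment, 5 days, 2 days, 9 days and control. Of its neighbours 5 and 2 days, and 9 days and control, were not separated by the test. For adma it was end of treatment, 9 days, 2 days, control and 5 days, where 9 and 2 days (0.06 ± 0.21, adjusted p = 0.924) and control and 5 days did not differ beyond their error. For edn1 it was 2 days, end of treatment, 5 days, 9 days and control. Of its neighbours 2 days and the end of treatment, and 5 and 9 days, were not separated. The order of edn2 was the same, with a test passed only between 2 days and the end of treatment. The next step, from the end of treatment to 5 days, was 0.43 ± 0.18 (adjusted p = 0.142) with arrays that did not overlap. For ednrab the order from the top was control, 5 days, 9 days, 2 days and end of treatment, and only the last pair passed the test. The ednrab arrays at 9 days nonetheless all lay above those at 2 days (0.33 ± 0.13, adjusted p = 0.153). The same order held for ednraa, with no neighbours separated by the test. Its arrays at 9 days nonetheless all lay above those at 2 days (0.21 ± 0.09, adjusted p = 0.168), a step that was called with each array centred on its median (0.26, adjusted p = 0.0463). For avpr1ab it was control, 9 days, 5 days, 2 days and end of treatment. Among neighbours only control and 9 days passed the test (0.92 ± 0.21, adjusted p = 0.012). The step between 5 and 2 days was 0.68 ± 0.21 (adjusted p = 0.244) with arrays that did not overlap.

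Other genes of these pathways were read from lists of relatives, 62 of whose 86 genes were measured. At the end of treatment 9 of the 62 (14.5%) rose and 8 (12.9%) fell, close to the 14.6% and 9.6% of all genes. Their median was -0.03, against 0.01 for all genes. At 2 days 4 rose (6.45%) and 5 fell (8.06%), against 7.62% and 4.15% of all genes. At 5 days 1 rose (1.61%) and 4 fell (6.45%), against 3.9% and 2.47%. At 9 days 3 rose (4.84%) and 2 fell (3.23%), against 4.24% and 3.3%. At the end of treatment the adrenomedullin relatives held 2 rises and 0 falls among 9 genes, the endothelin relatives 2 and 3 among 7, the vasopressin and oxytocin relatives 0 and 1 among 7, the peptide processing genes 1 and 1 among 9, and the other vasoactive peptides and receptors 4 and 3 among 30.

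The adrenomedullin 2 paralogue adm2b also rose at the end of treatment. Its control arrays lay between 4.42 and 4.58 and those at the end of treatment between 6.31 and 6.72, a rise of 2.06 ± 0.22 (adjusted p = 4.33e-06). At 2, 5 and 9 days it differed from control by 0.69 ± 0.22, 0.68 ± 0.22 and 0.38 ± 0.22 and did not pass the test (adjusted p = 0.0584 at 2 days). The lowest arrays of these groups, 4.77, 4.80 and 4.64, nonetheless lay above all control arrays. The other call among the 9 adrenomedullin relatives was ackr3b, for a scavenging receptor of chemokines that also binds adrenomedullin in mammals. It was 0.94 ± 0.20 higher at the end of treatment (adjusted p = 0.00225), and its arrays did not overlap those of control. Of the other receptor and RAMP genes of that list, calcrlb, calcr, ramp1, ramp2 and ackr3a differed by -0.21 ± 0.13, -0.14 ± 0.22, 0.11 ± 0.17, 0.10 ± 0.09 and -0.02 ± 0.17 without passing. These genes were named after their values were seen.

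Endothelin-converting enzyme genes went opposite ways at the end of treatment, with ece1 higher and ece2a and ece2b lower. The gene ece1, for an enzyme that cuts the endothelin precursor, rose by 0.62 ± 0.10 at the end of treatment (adjusted p = 0.000133), from 8.81 to 8.99 on the control arrays to 9.42 to 9.64. It was 0.45 ± 0.10 higher at 2 days (adjusted p = 0.00547) and 0.36 ± 0.10 higher at 9 days (adjusted p = 0.0307). The relative ece2b fell by 0.42 ± 0.10 at the end of treatment (adjusted p = 0.00615), 0.74 ± 0.10 at 2 days (adjusted p = 0.000162), 0.64 ± 0.10 at 5 days (adjusted p = 0.00109) and 0.39 ± 0.10 at 9 days (adjusted p = 0.0265). The calls at 9 days were lost for ece1 without control replicates 1 or 2 or 9 days replicates 1 or 2 (differences 0.32 to 0.35), and for ece2b without control replicates 2 or 3 or 9 days replicate 2 (differences -0.35 to -0.34). The gene ece2a, named after its values were seen, differed by -0.52 ± 0.17 at the end of treatment (adjusted p = 0.0356), with arrays that overlapped control. Its call was lost without control replicates 1 or 3 or end of treatment replicates 1 or 3 (differences -0.54 to -0.37). Testing every cluster (adjusted p = 0.0934), only the 6 arrays compared (adjusted p = 0.0719) or a replicate block (adjusted p = 0.0551) also lost it. The other type B receptor gene, ednrbb, also named after its values were seen, was not called at the end of treatment. It differed by -0.27 ± 0.17 (adjusted p = 0.3), with arrays below those of control.

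The gene pam, for the enzyme that amidates peptides such as adrenomedullin and vasopressin, rose by 0.43 ± 0.08 at the end of treatment (adjusted p = 0.000386). It was 0.30 ± 0.08 higher at 9 days (adjusted p = 0.0216), a call lost without control replicates 1 or 3 or 9 days replicate 3 (differences 0.24 to 0.32). The proprotein convertase gene pcsk5b fell by 1.09 ± 0.13 at the end of treatment (adjusted p = 9.22e-06) and by 0.62 ± 0.13 at 2 days (adjusted p = 0.00406).

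A second V1a receptor gene, avpr1aa, also fell against control. It lay between 10.58 and 10.68 in control and between 9.23 and 9.84 when treatment ended, a fall of -1.12 ± 0.13 (adjusted p = 1.02e-05). The falls were -0.56 ± 0.13 at 2 days (adjusted p = 0.0109), -0.51 ± 0.13 at 5 days (adjusted p = 0.0303) and -0.52 ± 0.13 at 9 days (adjusted p = 0.0243). The call at 5 days was lost without any 1 of the control arrays or without 5 days replicate 1 (differences -0.54 to -0.36). The call at 9 days was lost without control replicates 1 or 2 or 9 days replicates 1 or 3 (differences -0.56 to -0.45). The peptide gene avp differed by -0.27 ± 0.12 at the end of treatment and was not called (adjusted p = 0.142), though its arrays lay below control. The receptor genes avpr2l, oxtra and oxtrb were not called there either. These relatives of avpr1aa were named after their values were seen.

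Outside these 3 families, the urotensin 2 receptor gene uts2r, for the receptor of another vasoactive peptide, fell by -0.94 ± 0.11 at the end of treatment (adjusted p = 6.02e-06) and -0.85 ± 0.11 at 2 days (adjusted p = 5.96e-05). At 5 days it was -0.43 ± 0.11 (adjusted p = 0.0215), a call lost without control replicates 1 or 3 or 5 days replicate 1 (differences -0.41 to -0.38). The gene apln, for apelin, a peptide that widens vessels and strengthens contraction, lay between 8.37 and 8.68 in control and between 10.14 and 10.46 when treatment ended, a rise of 1.77 ± 0.12 (adjusted p = 2.4e-08). It was 0.84 ± 0.12 higher at 2 days (adjusted p = 0.000157) and 0.55 ± 0.12 at 5 days (adjusted p = 0.00899), the latter lost without 5 days replicate 2 (0.44, adjusted p = 0.0513).

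Among the relatives, peptide and receptor genes did not split by direction as the called genes among the 10 did. In the list of other vasoactive genes the angiotensin receptor gene agtr1b rose by 1.07 ± 0.24 at the end of treatment (adjusted p = 0.00283) and the receptor gene vipr2 of vasoactive intestinal peptide by 0.96 ± 0.17 (adjusted p = 0.000493). A peptide gene of that system, vipb, fell by 0.61 ± 0.18 (adjusted p = 0.0172), and the receptor gene vipr1b by 0.68 ± 0.21 (adjusted p = 0.0242). The calls of ackr3b, agtr1b and vipr2 held under all settings run. That of vipb was lost without control replicate 3 (-0.50, adjusted p = 0.0826) or end of treatment replicate 3 (-0.48, adjusted p = 0.0922). That of vipr1b was lost without control replicate 1 (-0.54, adjusted p = 0.115) or end of treatment replicates 1 (-0.70, adjusted p = 0.0524) or 2 (-0.54, adjusted p = 0.117). These 4 genes were also named after their values were seen.

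**Figure D4:**
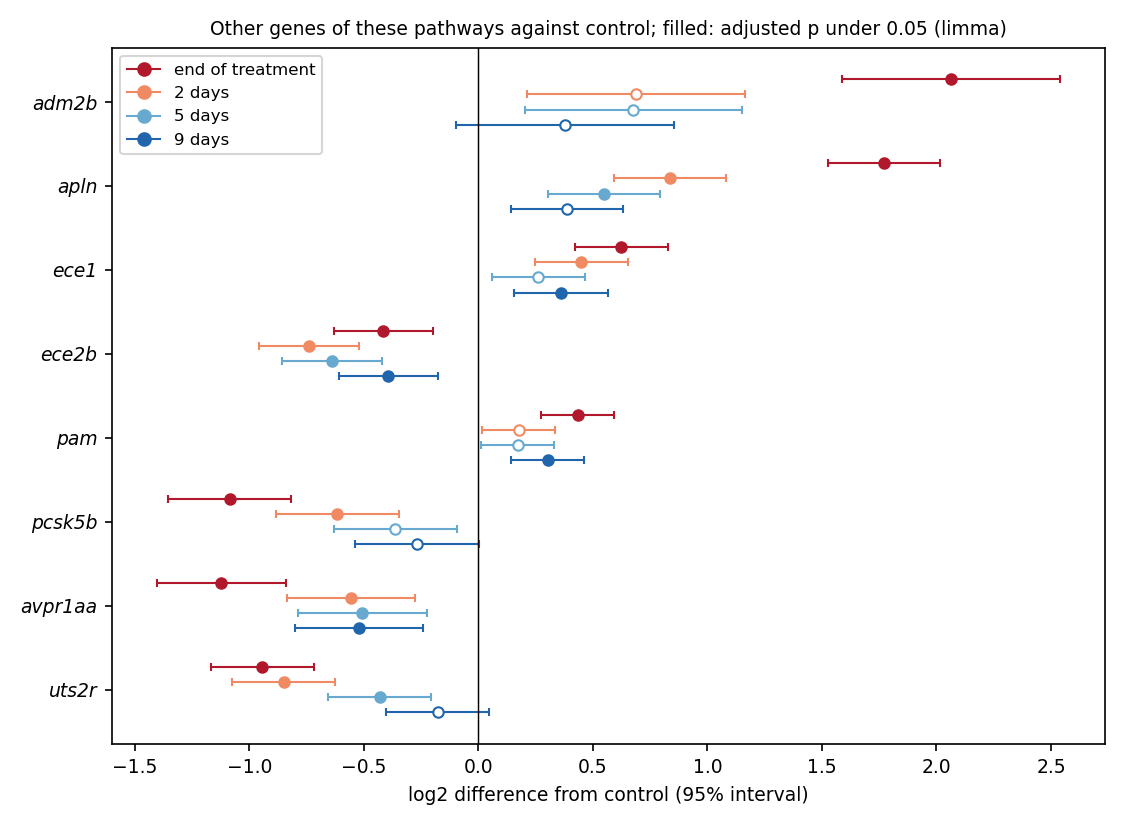
Log2 difference from control for 8 other genes of vasoactive pathways at the end of treatment and after 2, 5 and 9 days. Points are limma estimates from 3 arrays per group, bars are 95% intervals, and filled points have an adjusted p under 0.05. At the end of treatment adm2b, apln, ece1 and pam lie to the right and the other 4 genes to the left. The plot shows only the 4 genes with the smallest adjusted p in each comparison, and called relatives outside it include receptor genes that rose.

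The genes whose profiles over the 15 arrays were most like those of the called genes were as follows. For adm2a they were plod2, a collagen lysyl hydroxylase gene (Pearson r = 0.967), pfkfb3, for a regulator of glycolysis (r = 0.967), and eif4ebp2, for a repressor of translation (r = 0.965). For adma they were cuedc1b (r = 0.919), the phosphofructokinase gene pfklb (r = 0.91) and ppp1r15a, for a phosphatase subunit of the stress response (r = 0.907). For edn1 they were the transferrin receptor gene tfr2 (r = 0.966), the macrophage gene mpeg1.2 (r = 0.959) and rnd1a, for a small GTPase (r = 0.948). Those of edn2 were less alike, with pxmp2 at r = 0.883, xpo7 at r = 0.878 and glcci1a at r = 0.873.

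Among the receptors, ednrab was most like the small muscle protein gene smpx (r = 0.958), the cardiac transcription factor gene tbx20 (r = 0.958) and klhl23 (r = 0.942). The genes most like ednraa were the adenosine receptor gene adora1b (r = 0.896), ybx1 (r = 0.884) and pkmb, for a pyruvate kinase (r = 0.873). For avpr1ab they were stox2a (r = 0.955), pnpla6 (r = 0.942) and cttnbp2 (r = 0.941). These correlations describe profiles over arrays that share their groups, and leaving out any 1 array gave values between 0.826 and 0.978.

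Blood and immune markers moved with the treatment groups too. The red cell list, 6 of 8 genes measured, had a median difference from the control mean of 1.39 ± 0.26 at the end of treatment, 2.24 ± 0.15 at 2 days, 1.68 ± 0.04 at 5 days and 1.18 ± 0.04 at 9 days (SD, n = 3). At the end of treatment 4 of the 6 were called higher, against 14.6% of all genes. Not called there were gata1a (0.06 ± 0.16) and epb41b (-0.26 ± 0.23). At 2 days all 6 were called higher, against 7.62% of all genes. Among them were gata1a (1.07, adjusted p = 0.000402) and epb41b (1.05, adjusted p = 0.00703). The log2 summed signal of the list lay between 10.68 and 11.62 on the control arrays and between 13.19 and 13.47 at 2 days, the time of the highest mean of edn1 and edn2. The leukocyte and macrophage list, 7 of 7 measured, stood at 1.30 ± 0.29, 0.85 ± 0.24, 0.77 ± 0.12 and 0.82 ± 0.06, with summed signals of 9.03 to 9.35 in control and 10.54 to 10.91 when treatment ended. When treatment ended 5 of the 7 were called higher, against 14.6% of all genes, and mpx and lyz were not. The part of blood and immune cells in the results for the vasoactive genes was not tested. In such whole ventricles fewer cells of a type and less RNA per cell cannot be told apart.

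The medians of the endothelial and muscle lists moved less. The endothelial list, 7 of 10 measured, stood at 0.14 ± 0.13 at the end of treatment and 0.03 ± 0.09 at 2 days, with summed signals of 12.07 to 12.16 in control and 12.34 to 12.39 when treatment ended. At the end of treatment 3 of the 7 were called higher, kdr (0.78 ± 0.07), cdh5 (0.34 ± 0.06) and tie1 (0.28 ± 0.09). In the same comparison tek fell by 0.95 ± 0.13, and the other 3 were not called. These were 42.9% higher and 14.3% lower, against 14.6% and 9.6% of all genes. The cardiomyocyte list, 9 of 10 measured and with actc1a and myl7 at control means of 13.94 and 13.39, stood at -0.15 ± 0.05 at the end of treatment. Within it nppa rose (1.40 ± 0.09, adjusted p = 2.86e-08) and was still 0.80 higher than control at 2 days (adjusted p = 3.06e-05). At the end of treatment tnnt2a, myh7l and cmlc1 fell (-0.19 ± 0.05, -0.30 ± 0.06 and -0.23 ± 0.05), and the other 5 were not called. Smooth muscle and pericyte markers, 7 of 8 measured, were at 0.10 ± 0.04 at the end of treatment, -0.42 ± 0.14 at 5 days and -0.60 ± 0.21 at 9 days. When treatment ended acta2 was higher (0.73 ± 0.23) and notch3 lower (-0.44 ± 0.13), and the other 5 were not called. At 9 days 3 of the 7 were called lower and 0 higher, against 3.3% and 4.24% of all genes. The part of muscle cells in the results for the receptor genes was not tested. Epicardial markers, 6 of 6 measured, were at -0.44 ± 0.02, -0.47 ± 0.18, -0.35 ± 0.07 and -0.52 ± 0.23 in the 4 treated groups. The genes of that list did not all go the same way. At the end of treatment tcf21 (-0.85 ± 0.17) and tbx18 (-0.69 ± 0.18) fell, krt4 rose (0.62 ± 0.17), and the other 3 were not called. At 9 days 3 of the 6 epicardial genes were called lower and 0 higher, against the same shares of all genes as for smooth muscle. RMA gives no true zero, and no marker can be called absent from these values.

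**Figure D5:**
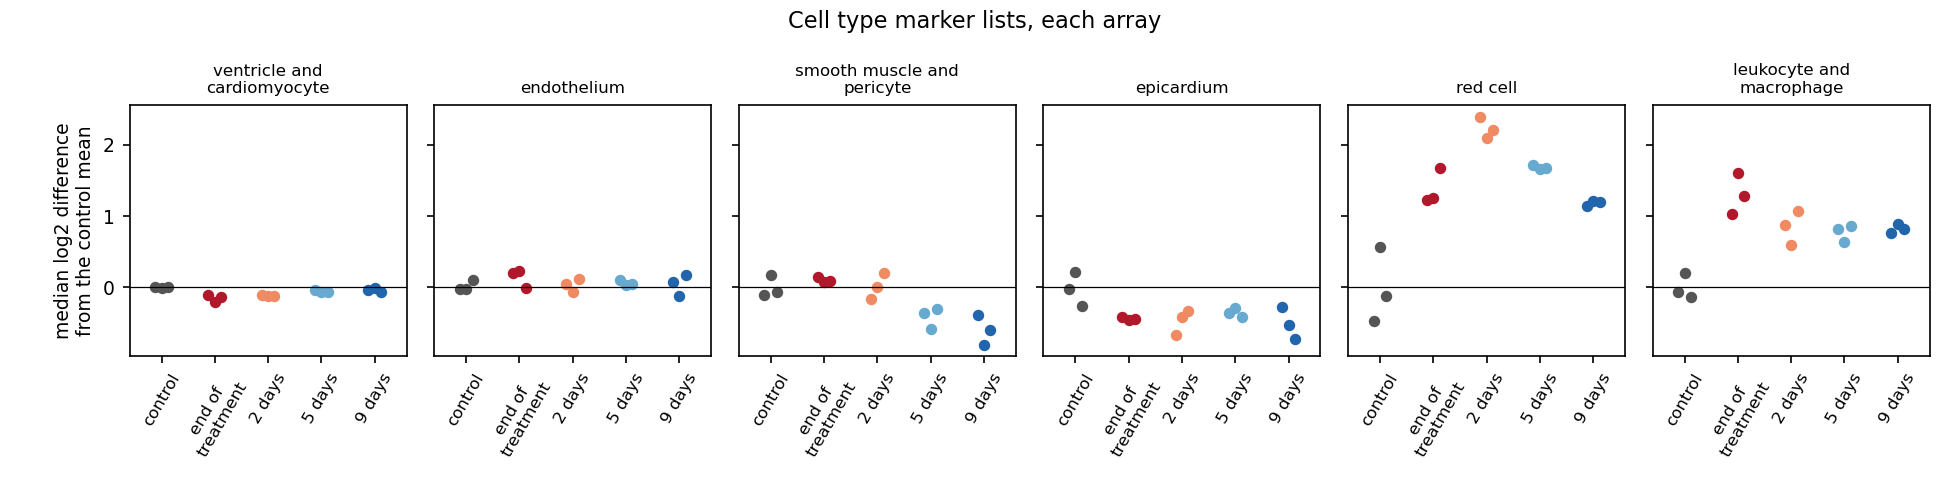
Median log2 difference from the control mean over the genes of 6 cell type marker lists, for each of the 15 arrays. The red cell list is highest at 2 days and the leukocyte and macrophage list at the end of treatment. The medians of the cardiomyocyte and endothelial lists stay near 0, though single genes in both rose or fell.

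Among the controls, replicate 2 had the highest signal for 7 of the 10 genes, against 38.6% of all genes. Its red cell score was 0.57, against -0.48 and -0.13 for the other control arrays. Without it, the calls at the end of treatment and at 2 days were kept for adm2a, edn1, edn2, ednrab and avpr1ab, with rises of 3.74 and 2.00 for adm2a. Calls lost without it were those of adma (adjusted p = 0.0749) and ednraa (adjusted p = 0.0554) at 2 days against control. Lost at 9 days were those of adma (adjusted p = 0.0783) and avpr1ab (adjusted p = 0.0583).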

How the data were processed

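The deposited values are log2 expression values that the authors made with RMA in the R package oligo, per the submitters' processing notes. Neither versions nor a genome build are named there. Of 75212 transcript clusters 20806 had exactly 1 symbol in the array annotation, 20323 of them matched by gene ID to GRCz12tu. The cluster with the highest mean was kept per gene, which left 19260 genes.

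All 15 arrays entered a single limma model (limma 3.58.1, R 4.3.3) of group means with an intensity-dependent variance prior; tests were 2-sided, with Benjamini-Hochberg adjustment over all genes in each of 10 comparisons. The comparison of 9 with 2 days was added after the data were seen, to order the groups. An exact permutation of 3 against 3 arrays cannot give a p under 0.1, so calls rest on limma's variance model. The median standard error was 0.14. The fitting code was run on simulated data with planted changes, a check of the code that does not bear on the calls from real pools. Same-numbered arrays had deviations correlated at -0.16 to 0.10 across 30 pairs, so replicate numbers were not treated as pairs.

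The genes and lists were chosen with earlier results of these data known. Named relatives are the 4 with the smallest adjusted p per comparison with control, and like genes the 3 with the highest r. Genes outside that rule are marked as named after their values were seen. Alternatives were the variance trend, array weights, median centring, cyclic loess, a filter on low genes, the mean of a gene's clusters, every cluster, only the 6 arrays compared, a replicate block and leaving out each array. Sequences and coordinates were not used here.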

Additional observations from a re-analysis of the deposited data

Results flagged for a closer look

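The differences from control changed between sampling times in 22 cases, each by limma's test of the difference between the 2 times with an adjusted p under 0.05. The values below are later minus earlier on the log2 scale, with 3 arrays per group.

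From the end of treatment to 2 days the values were -0.98 for adma, -1.74 for adm2a, 0.81 for edn2 and 0.47 for ednrab. To 5 days they were -1.75 for adma, -1.53 for adm2a, -0.72 for edn1, 0.89 for ednrab and 0.80 for avpr1ab. To 9 days they were -0.92 for adma, -3.00 for adm2a, -0.94 for edn1, 0.80 for ednrab and 1.16 for avpr1ab. Every peptide gene in these lists other than edn2 moved down and every receptor gene moved up.

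From 2 to 5 days edn1 changed by -1.07 and edn2 by -1.25. From 5 to 9 days adma changed by 0.83 and adm2a by -1.46. From 2 to 9 days adm2a changed by -1.26, edn1 by -1.30, edn2 by -1.29 and avpr1ab by 1.04.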

How the results depend on the processing

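Of 42 called results for the 10 genes, 31 kept their call under all 24 settings, and none of the 42 changed sign. At 9 days against control the number called was 1 in place of 3 when every transcript cluster was tested, and 1 to 4 with single arrays left out. It was 1 without control replicate 2 and without 9 days replicate 3, where adma and avpr1ab were lost. From 2 to 5 days it was 0 with every cluster and 1 with only the 6 arrays compared, in place of 2, and 0 to 2 with single arrays left out (0 without 2 days replicate 2, 1 without 5 days replicate 2). From 5 to 9 days it was 1 with every cluster and 1 with only the 6 arrays compared, in place of 2, and 1 to 2 with single arrays left out. The cause was not tested. Testing every cluster changed both the variance fit and the number of features adjusted over. The replicate block lost adma against control at 2 days (0.66, adjusted p = 0.0558) and at 9 days (0.72, adjusted p = 0.0514) and gained edn2 at 9 days against the end of treatment (-0.47, adjusted p = 0.0453). Arrays of the same number did not deviate together, and 0 of 15 arrays correlated best with one of its own number. Without control replicate 2, edn2 was called at 5 days against control (0.57, adjusted p = 0.0391). Among the related genes, testing every cluster lost the calls against control of avpr1aa (adjusted p = 0.099) and uts2r (adjusted p = 0.0686) at 5 days and of avpr1aa (adjusted p = 0.0863), ece1 (adjusted p = 0.0922), ece2b (adjusted p = 0.0833) and pam (adjusted p = 0.0593) at 9 days. With no variance trend avpr1aa was lost at 5 days (adjusted p = 0.066) and avpr1aa, ece1, ece2b and pam at 9 days (adjusted p = 0.0543, 0.0693, 0.0547 and 0.0609). At 9 days median centring also lost ece1 (adjusted p = 0.0539), and the 6 arrays alone ece2b (adjusted p = 0.0501) and pam (adjusted p = 0.0673). At the end of treatment vipb was lost with every cluster (adjusted p = 0.0518) and with the mean of a gene's clusters (adjusted p = 0.0801), and vipr1b with every cluster (adjusted p = 0.0735).

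All sign changes among the 10 genes were in results that were not called. Under median centring ednrba was -0.0035 at 9 days against control and 0.022 at 5 days against the end of treatment. Under cyclic loess ednrba was -0.0040 at 9 days against control and ednraa -0.0055 at 2 days against the end of treatment. With single arrays left out, calcrla ran from -0.46 to 0.018 at the end of treatment, from -0.14 to 0.33 at 2 days, from -0.36 to 0.12 at 5 days and from -0.081 to 0.39 at 9 days against control. In the same comparisons ednrba ran from -0.12 to 0.087 at the end of treatment, from -0.17 to 0.033 at 5 days and from -0.059 to 0.15 at 9 days, adma from -0.26 to 0.090 at 5 days, and admb from -0.23 to 0.055 at 9 days. Against the end of treatment, admb ran from -0.30 to 0.53 at 2 days and from -0.58 to 0.24 at 5 days, ednraa from -0.047 to 0.062 at 2 days, and calcrla from -0.056 to 0.24 at 5 days. From 2 to 5 days admb ran from -0.53 to 0.073. From 5 to 9 days edn2 ran from -0.15 to 0.019, ednraa from -0.12 to 0.022 and ednrab from -0.24 to 0.073. From 2 to 9 days adma ran from -0.14 to 0.25 and calcrla from -0.024 to 0.16.

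With 3 pools per group the number of arrays limits the precision. RMA values carry no detection call, so low signals such as those of ednrba cannot be set against background.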
